A study of Mus musculus with 4 samples.

Results

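The 40 genes described here are mouse genes of ribosome biogenesis and the nucleolus, 40 of the 55291 features in the deposited count table. They were chosen by symbol, as nucleolar proteins, RNA polymerase I subunits and rRNA processing factors. The rule reads the symbol alone, not a measured value, but the list was chosen with earlier results of these data known. By role they fall into 7 genes of RNA polymerase I transcription, 3 nucleolar scaffold and chaperone genes, 4 box C/D and 4 box H/ACA snoRNP genes, 14 genes of the small subunit processome and 8 genes of large subunit assembly. All 40 symbols were found in the table.

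RNA-seq was performed on total RNA of mouse zygotes, the fertilised eggs before they divide, in a series that asks what histone H3.3 made from maternal mRNA does to the paternal genome. The 4 groups were zygotes injected with an H3.3 MO, the MO control, zygotes injected with H3.3 S31A and the S31A control, with 1 sample in each. MO is not written out in the labels and usually means morpholino, an antisense oligonucleotide, and S31A is the usual notation for serine replaced by alanine. What the controls received, in which form S31A was injected, the strain, and the number of zygotes per sample are not given in the sources used here.

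Ribosomes are built in the nucleolus. RNA polymerase I transcribes the long precursor of the ribosomal RNAs, small nucleolar ribonucleoproteins (snoRNPs) modify it by ribose methylation (box C/D) or pseudouridylation (box H/ACA), and large assemblies cut and fold it into the precursors of the small and the large subunit. The fully grown mouse oocyte silences this pathway, and the zygote carries compact nucleolus precursor bodies with little or no rRNA synthesis, which returns after the first cleavage. Most RNA of a zygote comes from the egg.

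Each sample had 2 columns of raw counts, called libraries 1 and 2 below, with 5661621 to 13233371 counts each. No source says whether these are separate pools of zygotes, so they were not counted as replicates, no test was made, and every difference lacks a replicate check. Levels are counts scaled to a common library total (CPM) with TMM factors, and a comparison is the log2 ratio of the CPM of the summed libraries with its 95% counting interval, which covers counting error only. Detected genes numbered 13159 and 13359 in MO injected, 15156 and 14895 in MO control, 11791 and 11447 in S31A injected and 11372 and 11768 in S31A control libraries, and 3.47% to 10.36% of counts were mitochondrially encoded. Of the H3.3 genes, H3f3a stood at 8.04 and 52.4 CPM in the MO injected libraries, against 462 and 586 CPM in those of the MO control, and at 485 and 648 CPM in the S31A injected libraries, against 657 and 563 CPM in those of the S31A control. H3f3b stood at 2.30 and 10.5 CPM in the MO injected libraries, against 2199 and 1550 CPM in those of the MO control, and at 2438 and 2749 CPM in the S31A injected libraries, against 1453 and 1819 CPM in those of the S31A control. All 15 oocyte markers in the table were detected in every sample, whereas of 14 cumulus and granulosa markers 1 to 4 were detected, with Has2, Ptx3, Tnfaip6, Fshr, Lhcgr, Amh, Foxl2 and Fst at 0 throughout. Cyp19a1 was detected in every sample, and the cumulus and granulosa markers summed to 53.3 to 167 CPM per library. Of 8 sperm markers 1 or 2 were detected, at 6.74 CPM or less in sum, with Prm2 detected in every sample and Prm1, Tnp1 and Tnp2 at 0.

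Several of these genes have processed copies elsewhere in the genome, and their sequence carries part of the result, since a short read from a copied stretch can be assigned to either place. An alignment of the 40 coding sequences found 27 annotated features at 85% identity or more for 13 of the genes. Counts on the copies exceeded those on the gene itself for 3 of them, Npm1, Ddx18 and Pes1. Npm1 (nucleophosmin, an abundant nucleolar histone and ribosome chaperone) lies on the minus strand of chr11:33152287-33163206 in mm10. Its most heavily counted copies are Gm9118 (chr10:56497341-56498094, plus strand), Gm5611 (chr9:17030045-17030896, plus strand) and Gm6477 (chr10:39198538-39199301, plus strand). Ddx18 (an RNA helicase of large subunit assembly) lies on the minus strand of chr1:121553835-121567989, and its copy Gm16433 on the minus strand of chr6:108563605-108565588. Pes1 (pescadillo, of the large subunit) lies on the plus strand of chr11:3963975-3980004, and its copy Gm5910 on the minus strand of chr8:83477471-83479216. The stretches below are the leftmost 60 bases of each coding sequence, 5′ to 3′ in the sense of the mRNA, from GENCODE M21 transcripts, which align without a gap and hold at least 1 difference in each copy shown; they show how few bases separate a member from its copy, and capitals mark bases at which a copy differs from the member.
Npm1, coding bases 2 to 61: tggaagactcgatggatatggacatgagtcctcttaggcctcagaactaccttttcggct
Gm9118, the same stretch: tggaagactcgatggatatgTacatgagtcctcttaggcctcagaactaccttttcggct
Gm5611, the same stretch: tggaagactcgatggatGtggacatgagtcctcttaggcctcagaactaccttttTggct
Gm6477, the same stretch: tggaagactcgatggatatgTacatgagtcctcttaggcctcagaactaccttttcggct
Ddx18, coding bases 29 to 88: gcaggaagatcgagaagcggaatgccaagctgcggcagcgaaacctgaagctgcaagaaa
Gm16433, the same stretch: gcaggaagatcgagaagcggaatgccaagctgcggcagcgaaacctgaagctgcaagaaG
Pes1, coding bases 1 to 60: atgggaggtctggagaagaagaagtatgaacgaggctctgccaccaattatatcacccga
Gm5910, the same stretch: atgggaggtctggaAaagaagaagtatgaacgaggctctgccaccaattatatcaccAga
Each copy shown differed from its member by 1 or 2 bases in 60, and over the aligned coding sequence identity was 97.0% for Gm9118, 99.3% for Gm16433 and 95.4% for Gm5910.

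Together the 40 genes held 0.192% of counts in MO injected, 0.225% in MO control, 0.179% in S31A injected and 0.191% in S31A control zygotes. Their coverage was uneven. Counts were found in all 8 libraries for 24 genes and in none for Nop16, a nucleolar protein of large subunit assembly. Of the 40 genes, 33 and 32 were detected in the MO injected libraries, 38 and 39 in the MO control libraries, 31 and 28 in the S31A injected libraries, and 28 and 29 in the S31A control libraries. At 10 CPM or more, the level from which ratios were read, stood 22 genes in MO injected, 24 in MO control, 18 in S31A injected and 23 in S31A control zygotes; 15 genes reached it in all 4 samples and 13 in none.

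**Figure D1:**
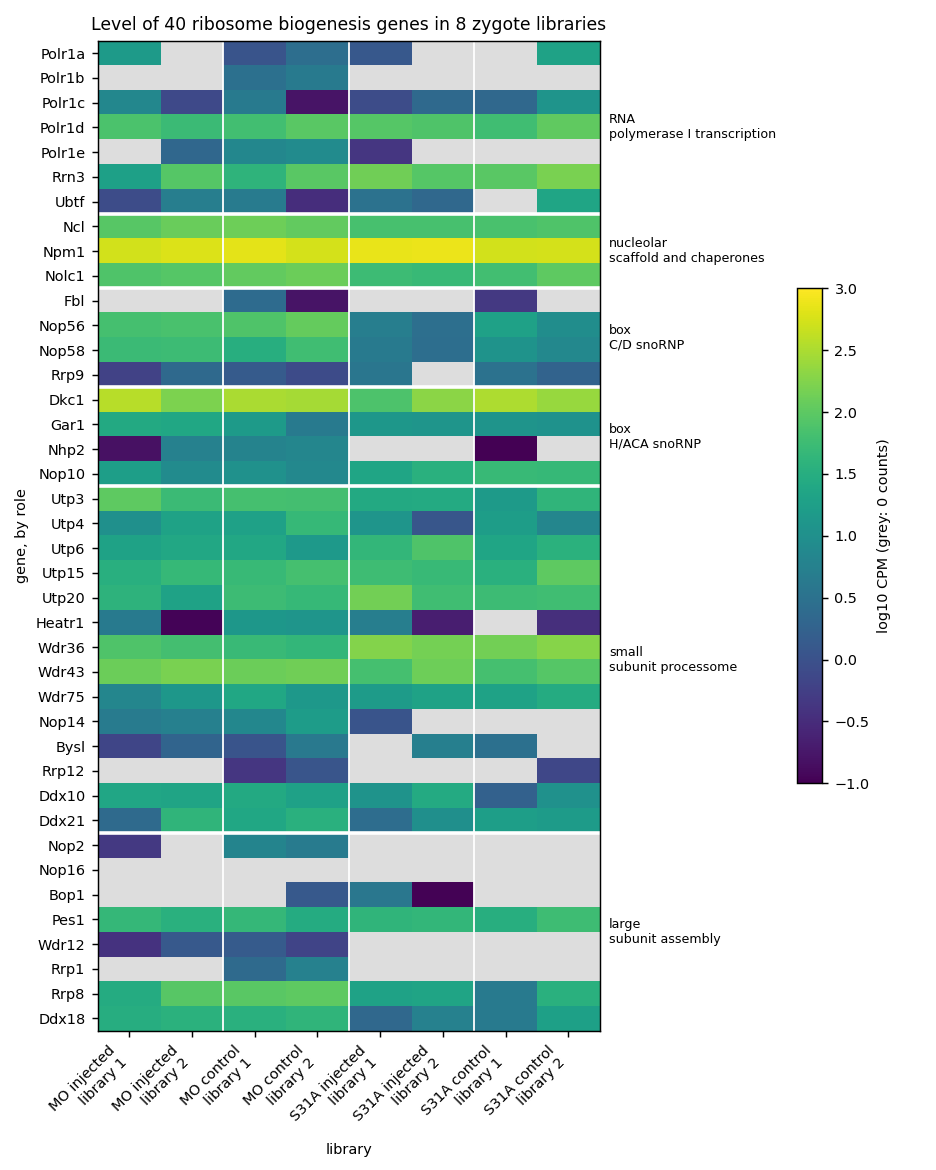
Log10 CPM of the 40 genes (rows, by role) in the 8 libraries (columns, by sample), from dark to bright, with grey for 0 counts. Npm1 is the brightest row in every library, Nop16 is grey throughout, and grey cells are fewest in the MO control libraries, where 38 and 39 of the 40 genes were detected.

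Per kilobase of exon, Npm1 was the most abundant of the 40, at 216 CPM per kilobase in MO injected, 229 in MO control, 281 in S31A injected and 206 in S31A control zygotes, and it made up 41.27% of the summed level of all 40. Counts on its copies are not part of these values. Dkc1 (dyskerin, the pseudouridine synthase of box H/ACA snoRNPs) followed at 70.7 CPM per kilobase in MO injected, 70.9 in MO control, 32.6 in S31A injected and 68.5 in S31A control zygotes. Utp3, a processome protein encoded by a single exon, stood at 50.2 CPM per kilobase in MO injected, 39 in MO control, 16.8 in S31A injected and 17.5 in S31A control zygotes. By library it had 100.9 and 53.3 CPM in MO injected, 66.1 and 64.6 CPM in MO control, 26.7 and 27.5 CPM in S31A injected and 15 and 40.8 CPM in S31A control zygotes. The order below Npm1 and Dkc1 thus differed between experiments, since Utp3 was higher in both MO samples than in both S31A samples. Polr1d, a subunit shared by RNA polymerases I and III, kept to a narrow range, at 21.6 CPM per kilobase in MO injected, 23.9 in MO control, 27.8 in S31A injected and 27.4 in S31A control zygotes. Nop10, the smallest box H/ACA protein, stood at 12.4 CPM per kilobase in MO injected, 8.07 in MO control, 25.7 in S31A injected and 44.2 in S31A control zygotes, with both S31A samples above both MO samples. At the low end were Nop16 at 0, Wdr12 at no more than 0.0902 and Rrp12 at no more than 0.161 CPM per kilobase in any sample. Wdr12 had 5 and 12 counts in MO injected, 13 and 4 in MO control and 0 in all S31A libraries, and Rrp12 had 0 in both MO injected libraries, 4 and 7 in MO control, 0 in both S31A injected libraries and 0 and 8 in S31A control libraries.

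Per kilobase of deposited length, partners of a single complex did not stand at a single level. In the complex of Pes1, Bop1 and Wdr12, which matures the large subunit RNA, Pes1 stood at 13.6 CPM per kilobase in MO injected, 12.6 in MO control, 14.2 in S31A injected and 15.2 in S31A control zygotes. In the same complex Bop1 reached at most 0.762 and Wdr12 at most 0.0902 CPM per kilobase. Among the box C/D core proteins, Nop56 stood at 16.9 CPM per kilobase in MO injected, 21.9 in MO control, 1.02 in S31A injected and 3.45 in S31A control zygotes, and Nop58 at 5.09 CPM per kilobase in MO injected, 3.87 in MO control, 0.348 in S31A injected and 0.869 in S31A control zygotes. Fbl (fibrillarin, the methyltransferase of the particle) stood at no more than 0.362 CPM per kilobase. In RNA polymerase I itself, Polr1a, the catalytic subunit, reached at most 0.872, Polr1b, the other large subunit, at most 0.590, and the polymerase I subunit Polr1e at most 1.91 CPM per kilobase. The shared subunits Polr1c and Polr1d stood apart, Polr1d at the levels given above and Polr1c at 2.01 CPM per kilobase in MO injected, 1.17 in MO control, 0.674 in S31A injected and 3.20 in S31A control zygotes. The aligner named in the submitters' notes, Bowtie2, does not split reads over introns, so levels of genes with many short exons may be understated relative to a single-exon gene such as Utp3, and the size of that effect was not tested. Levels per kilobase also depend on the deposited length, which was 10758 bases for Nop58 and 4099 for Nop56. Without the division, Nop56 and Nop58 stood at 69.5 and 54.8 CPM in MO injected and 89.8 and 41.6 CPM in MO control zygotes. They stood at 4.17 and 3.74 CPM in S31A injected and 14.1 and 9.35 CPM in S31A control zygotes. The length of Wdr12 was 11955 bases, against 3024 for Pes1.

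The spread between the libraries of a sample sets what can be read from the ratios. Of the measured members, 6 of 24 were at least 2-fold apart between the MO injected libraries, 4 of 25 between the MO control libraries, 4 of 19 between the S31A injected libraries and 10 of 26 between the S31A control libraries. Over all measured genes the shares were 39.8% in MO injected, 24.8% in MO control, 41% in S31A injected and 40.4% in S31A control zygotes. The widest gaps were those of the polymerase I factors in the S31A control. Ubtf, which wraps the ribosomal DNA repeats, had 0.843 and 5.13 CPM in MO injected, 4.56 and 0.329 CPM in MO control, 3.24 and 2.25 CPM in S31A injected and 0 and 22.7 CPM in S31A control libraries. Polr1a had 14.9 and 0 CPM in MO injected, 1.09 and 2.79 CPM in MO control, 1.28 and 0 CPM in S31A injected and 0 and 19.96 CPM in S31A control libraries. In the S31A control sample library 1 thus held 0 counts of either gene, and library 2 held 258 of Ubtf and 227 of Polr1a. Ddx21, a helicase of rRNA synthesis and processing, was 16.0-fold apart within the MO injected sample, at 2.45 and 42.1 CPM, and Utp4, a processome protein, 9.01-fold apart within the S31A injected sample, at 12.2 and 1.18 CPM.

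After MO injection, 25 of the 40 genes were measured, meaning that the MO injected or the MO control sample reached 10 CPM. Gar1 was at least 2-fold higher and Heatr1, Nop14, Utp4 and Wdr75, all of the small subunit processome, were at least 2-fold lower. Higher by that margin was 1 of 25, against 11.3% of all 8110 measured genes, and lower were 4 of 25, against 12.5%. With both injected libraries on the far side of both control libraries there remained 1 gene higher, against 7.29% of all genes, and 3 lower, against 10.4%. These shares are close to those of all genes or below them. The median log2 ratio was -0.14 over the 25 genes and 0.03 over all measured genes. Without MO injected library 2 there were 2 higher and 7 lower of 26, against 1271 and 1885 of all 8296 genes. Without MO control library 2 there were 0 higher and 2 lower of 24, against 991 and 966 of all 8061. Levels were scaled to a common library total, so a change in total RNA per zygote cannot be read from these ratios.

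Gar1, a partner of dyskerin in the box H/ACA snoRNP, stood at 26.9 and 24.3 CPM in the MO injected libraries, against 15 and 4.44 CPM in those of the MO control. Both injected libraries were above both control libraries, and those of the control differed 3.28-fold between themselves. Over the summed libraries Gar1 was 2.47-fold higher (log2 ratio 1.30, interval 1.06 to 1.57). Its log2 ratio was 2.55 without MO control library 1 and 0.83, under 2-fold, without MO control library 2. Neither of the other measured box H/ACA genes was 2-fold apart. Dkc1 stood at 378 and 164 CPM in the MO injected libraries, against 309 and 289 CPM in those of the MO control. The control libraries lay between the injected ones (log2 ratio -0.0041, interval -0.06 to 0.05; 0.29 without MO injected library 2). Dropping injected library 1 instead took Dkc1 to -0.91, still under 2-fold, so its sign with MO is not stable. Nop10 stood at 17.3 and 8.51 CPM in the MO injected libraries, against 10.5 and 7.23 CPM in those of the MO control, overlapping (log2 ratio 0.62, interval 0.33 to 0.92), and its log2 ratio was -0.14 without MO injected library 1. Nhp2, the remaining H/ACA core protein, was under 10 CPM throughout, with 55 counts in MO injected and 98 counts in MO control zygotes. Of the injected counts, 2 lay in library 1 and 53 in library 2. Both injected libraries were below both control libraries, library 2 by a narrow margin (0.153 and 5.785 against 6.19 and 6.74 CPM).

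Heatr1, a scaffold protein of the processome that in yeast and human cells also bears on rRNA transcription, stood at 4.37 and 0.109 CPM in the MO injected libraries, against 13.3 and 12 CPM in those of the MO control. Both injected libraries were below both control libraries, and the injected libraries were themselves far apart. Summed, Heatr1 was 4.58-fold lower (log2 ratio -2.19, interval -2.68 to -1.81), and without MO injected library 1, which leaves 1 injected count, the log2 ratio was -5.83, and -1.56 without MO injected library 2. Wdr75 stood at 6.82 and 13.1 CPM in the MO injected libraries, against 24.4 and 13.8 CPM in those of the MO control, and Nop14 at 4.67 and 5.46 CPM in the MO injected libraries, against 7.17 and 16.4 CPM in those of the MO control. For both genes both injected libraries were below both control libraries, for Wdr75 by a narrow margin (13.1 against 13.8 CPM in libraries 2). Summed, Wdr75 was 2.06-fold lower (log2 ratio -1.04, interval -1.31 to -0.79) and Nop14 2.07-fold lower (log2 ratio -1.05, interval -1.43 to -0.71). Neither stayed past 2-fold in every reduced comparison. The log2 ratio of Wdr75 was -0.51 without MO control library 1 and -0.65 without MO injected library 1, and that of Nop14 was -0.46 without MO control library 2 and -1.66 without MO control library 1. Utp4 stood at 10.3 and 19.97 CPM in the MO injected libraries, against 19.3 and 47.8 CPM in those of the MO control, where the libraries overlapped (log2 ratio -1.05, interval -1.26 to -0.84), with log2 ratios of -0.39 without MO control library 2, -1.70 without MO control library 1 and -0.65 without MO injected library 1. Exons of Heatr1 overlap those of Lgals8 over 155 bases on the opposite strand, and those of Nop14 the antisense transcript Gm15522 over 144 bases. The strand setting of the counting is not given, so part of these counts may belong to the partner.

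Of the processome genes within 2-fold, Utp15 stood at 33.3 and 48.1 CPM in the MO injected libraries, against 48.9 and 66.8 CPM in those of the MO control, both injected libraries below both control libraries (log2 ratio -0.45, interval -0.59 to -0.32). Wdr43 stood at 128 and 155 CPM in the MO injected libraries, against 126 and 134 CPM in those of the MO control, overlapping (log2 ratio 0.16, interval 0.08 to 0.24). Utp20 stood at 38 and 20.1 CPM in the MO injected libraries, against 55.4 and 48.3 CPM in those of the MO control, below in both injected libraries (log2 ratio -0.73, interval -0.88 to -0.58), and at a log2 ratio of -1.41 without MO injected library 1. Wdr36 stood at 79.5 and 62.8 CPM in the MO injected libraries, against 52 and 45.2 CPM in those of the MO control, above in both (log2 ratio 0.61, interval 0.49 to 0.74). The other measured processome genes overlapped between the samples: log2 ratios were 0.36 for Utp3, 0.16 for Utp6, -0.02 for Ddx10 and -0.55 for Ddx21. That of Ddx21 was -3.52 without MO injected library 2, and it was 0.53 when MO injected library 1 was left out. Utp3 stood at -0.33 without MO injected library 1. Utp6 (-0.12 without MO control library 2), Ddx10 (0.27 without MO control library 1) and Wdr43 (-0.05 without MO injected library 2) also changed sign. The median of the 12 measured processome genes was -0.50.

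The scaffold genes and the measured box C/D genes, Nop56 and Nop58, stood within 2-fold of their controls. Npm1 had 534 and 626 CPM in the MO injected libraries, against 684 and 549 CPM in those of the MO control, and the ranges overlapped (log2 ratio -0.09, interval -0.13 to -0.05). Ncl (nucleolin, a major RNA-binding protein of the nucleolus) had 91.5 and 120.5 CPM in the MO injected libraries, against 132 and 109 CPM in those of the MO control, again overlapping (log2 ratio -0.20, interval -0.29 to -0.11). Nolc1, a chaperone that shuttles snoRNPs between nucleolus and Cajal bodies, had 80.2 and 89.7 CPM in the MO injected libraries, against 108 and 129 CPM in those of the MO control, and both injected libraries were lower by a small margin (log2 ratio -0.41, interval -0.50 to -0.31). Nop56 had 67 and 71.9 CPM in the MO injected libraries, against 78.5 and 114 CPM in those of the MO control, lower in both (log2 ratio -0.37, interval -0.48 to -0.27). Nop58 had 53.4 and 55.9 CPM in the MO injected libraries, against 32.7 and 58.4 CPM in those of the MO control, and here the ranges overlapped (log2 ratio 0.39, interval 0.26 to 0.54). Without MO control library 1 the log2 ratio was 0.10 for Npm1 and -0.06 for Nop58, so neither has a stable sign.

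In the large subunit group, Rrp8, a methyltransferase that also takes part in silencing of ribosomal DNA in human cells, stood at 28.4 and 90.8 CPM in the MO injected libraries, against 96.2 and 101 CPM in those of the MO control. Both injected libraries were below both control libraries (log2 ratio -0.80, interval -0.92 to -0.69), with a log2 ratio of -1.82 without MO injected library 2, and one of -0.14 when MO injected library 1 was left out. Exons of Rrp8 overlap those of Ilk over 222 bases on the opposite strand. Pes1 stood at 45.6 and 34.2 CPM in the MO injected libraries, against 46.6 and 28.4 CPM in those of the MO control, overlapping (log2 ratio 0.11, and -0.23 without MO injected library 1). Ddx18 stood at 31.2 and 35.9 CPM in the MO injected libraries, against 35 and 41.8 CPM in those of the MO control, overlapping as well (log2 ratio -0.13). Of the polymerase I genes, Polr1d and Rrn3, the factor that brings the polymerase to its promoter, were measured. Polr1d stood at 74.2 and 52.9 CPM in the MO injected libraries, against 62.3 and 94 CPM in those of the MO control, overlapping (log2 ratio -0.14, and 0.12 without MO control library 2). Rrn3 stood at 18.6 and 89.6 CPM in the MO injected libraries, against 39.5 and 94.7 CPM in those of the MO control, overlapping (log2 ratio -0.31), and its log2 ratio ran from -1.75 without MO injected library 2 to 0.51 without MO injected library 1.

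Below 10 CPM, several genes were seen in the MO control and little or not at all in the injected zygotes. Polr1b had 0 counts in MO injected and 54 in MO control zygotes, and Rrp1, of the large subunit, had 0 in MO injected and 57 in MO control zygotes. A floor of 3 counts per summed sample covers counting error only. Against that floor, Polr1b was at least 25.2-fold lower and Rrp1 at least 26.6-fold lower. Fbl had 0 counts in MO injected and 24 in MO control zygotes (at least 11.2-fold lower), and 23 of the control counts lay in library 1. Nop2, an rRNA methyltransferase, had 6 counts in MO injected zygotes, all in library 1, and 87 in MO control zygotes (log2 ratio -3.92, interval -5.83 to -3.16). Polr1e had 20 counts in MO injected zygotes, all in library 2, and 117 in MO control zygotes (log2 ratio -2.90, interval -3.80 to -2.34). Rrp12, which takes part in export of the subunits, had 0 counts in MO injected and 11 in MO control zygotes, and Bop1 had 0 in MO injected and 8 in MO control zygotes. Polr1c, Ubtf, Rrp9, Bysl and Wdr12, also under 10 CPM, overlapped between the samples and had log2 ratios of 0.76, -0.08, 0.19, -0.81 and -0.44 in that order of genes. At 1 CPM or more, 37 of the 40 genes could be compared, and 2 (Gar1 and Polr1a, whose injected counts all lay in library 1) were higher by 2-fold or more and 10 lower, against 16.7% and 24.3% of the 14229 genes at that level. Of the 37 genes at 1 CPM or more in the MO control, 3 had 0 counts in MO injected zygotes, against 8.98% of all such genes. The MO control libraries also held the most detected genes of all 8, as given above, and whether that bears on these low genes was not tested.

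**Figure D2:**
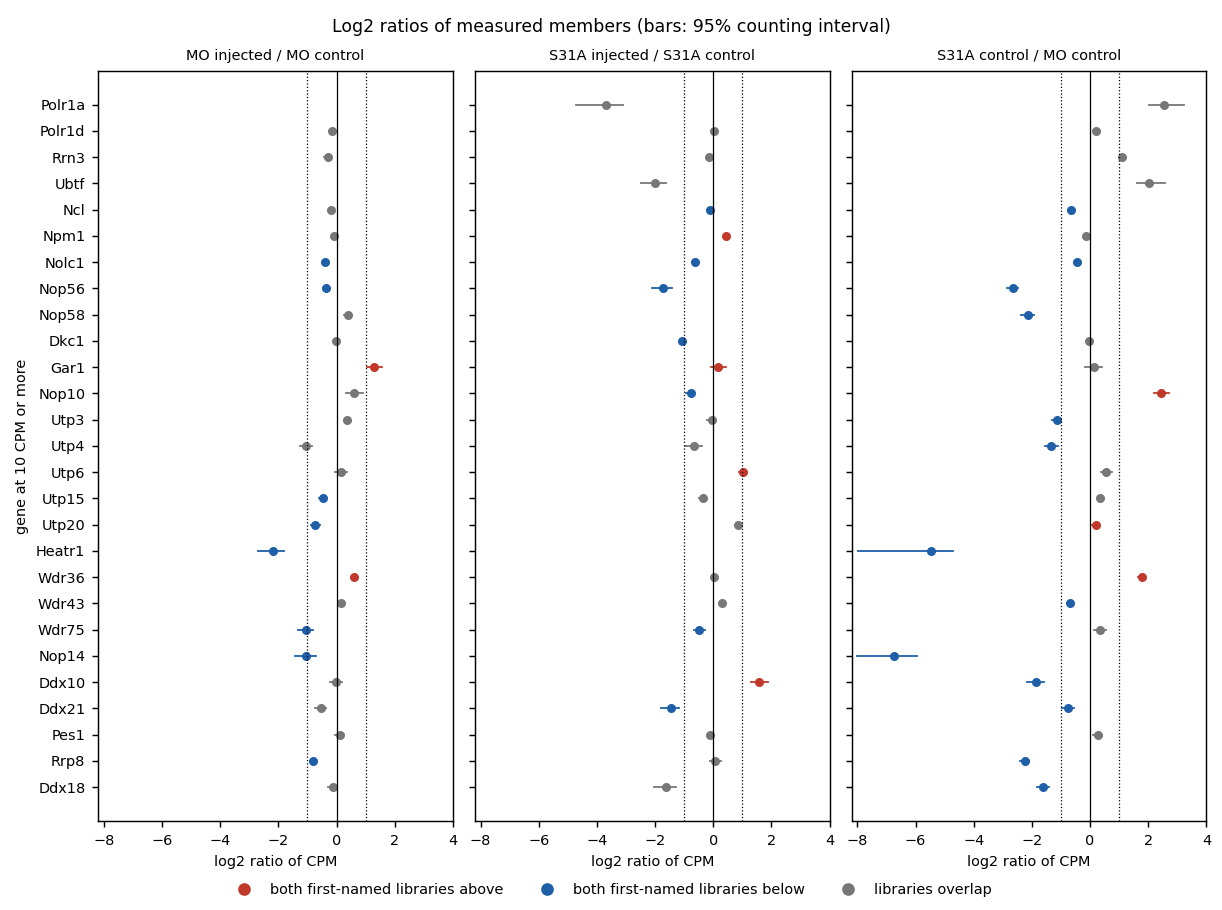
Log2 ratios of CPM (x axis) of the measured genes (rows, by role) in the MO experiment, the S31A experiment and between the controls; bars are 95% counting intervals and dotted lines mark 2-fold. Red marks genes with both libraries of the first-named sample above both of the other, blue below, grey overlapping. Past 2-fold with MO injection are 1 higher and 4 lower of 25 genes, against 11.3% and 12.5% of all genes. With S31A they are 2 and 6 of 24, against 14.1% and 16.1%. Between the controls they are 5 and 9 of 27, against 13.6% and 16.2%.

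With S31A injection 24 of the 40 genes were measured. Nop56, Ddx21 and Dkc1 were at least 2-fold lower with both injected libraries below both control libraries, and Ddx10 and Utp6 at least 2-fold higher with both above. Higher by 2-fold were 2 of 24, against 14.1% of all 8191 measured genes, and lower were 6 of 24, against 16.1%. With the libraries apart as well, 2 were higher, against 9.19% of all genes, and 3 lower, against 11.4%. The other 3 lower genes, Polr1a, Ubtf and Ddx18, overlapped between the libraries. The median log2 ratio was -0.13 over the 24 genes and 0.02 over all measured genes. Without S31A control library 2 the members' median turned to 0.32. Without S31A control library 1 there were 0 of 23 higher, against 1525 of all 8263 genes. Without S31A injected library 2 there was 1 of 24, against 1471 of all 8321.

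The box C/D core proteins were low in the whole S31A experiment. Nop56 stood at 5.12 and 2.89 CPM in the S31A injected libraries, against 19.2 and 9.14 CPM in those of the S31A control. Nop58 stood at 4.43 and 2.78 CPM in the S31A injected libraries, against 11.4 and 7.30 CPM in those of the S31A control. For both genes the injected libraries were below the control libraries. Nop56 was 3.33-fold lower (log2 ratio -1.74, interval -2.12 to -1.41), and under each single library left out it stayed between -1.09 and -2.28. Nop58, at 9.35 CPM in the summed S31A control just under the 10 CPM required, was 2.46-fold lower (log2 ratio -1.30, interval -1.72 to -0.94). Fbl had 0 counts in S31A injected and 5 in S31A control zygotes. Rrp9, a protein of the snoRNP that guides early cleavage of the precursor, had 44 counts in S31A injected and 56 in S31A control zygotes, too few to separate (interval -0.88 to 0.32). Exons of Nop56 and Nop58 contain annotated snoRNAs on the same strand, as do those of Ncl, and such reads cannot be told apart.

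Of the box H/ACA genes, Dkc1 stood at 75.5 and 205 CPM in the S31A injected libraries, against 323 and 241 CPM in those of the S31A control. Both injected libraries were below both control libraries, and the injected libraries were 2.71-fold apart. Summed, Dkc1 was 2.10-fold lower (log2 ratio -1.07, interval -1.14 to -1.01), and the log2 ratio was -0.50 without S31A injected library 1, -0.82 without S31A control library 1, and it was -1.92 when S31A injected library 2 was left out. Nop10 stood at 22.8 and 35 CPM in the S31A injected libraries, against 50.4 and 47.1 CPM in those of the S31A control, lower in both injected libraries by less than 2-fold (log2 ratio -0.78, interval -0.93 to -0.64; -1.12 without S31A injected library 2). Gar1 stood at 13.2 and 12.2 CPM in the S31A injected libraries, against 11.9 and 10.9 CPM in those of the S31A control, a difference within its counting interval (log2 ratio 0.17, interval -0.08 to 0.43). Nhp2 had 0 counts in S31A injected and 1 in S31A control zygotes, so no ratio is given.

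Among the helicases, Ddx10, of the processome, stood at 11.2 and 27.4 CPM in the S31A injected libraries, against 1.77 and 10.4 CPM in those of the S31A control. Both injected libraries were above both control libraries, and it was 2.95-fold higher (log2 ratio 1.56, interval 1.29 to 1.87). Its log2 ratio was 0.82 without S31A injected library 2, 0.85 without S31A control library 1 and 3.34 without S31A control library 2. Ddx21 stood at 2.73 and 9.74 CPM in the S31A injected libraries, against 17.2 and 15.7 CPM in those of the S31A control. It was lower in both injected libraries, 2.77-fold in sum (log2 ratio -1.47, interval -1.79 to -1.19). Its log2 ratio was -0.79 without S31A injected library 1 and -2.57 without S31A injected library 2. Ddx18 stood at 2.22 and 5.67 CPM in the S31A injected libraries, against 4.49 and 18.6 CPM in those of the S31A control, where an injected library exceeded a control one. Its summed log2 ratio was -1.62 (interval -2.03 to -1.28), with -0.20 without S31A control library 2, -2.25 without S31A control library 1, and it was -2.38 when S31A injected library 2 was left out. The 3 helicases thus stood on both sides of their controls.

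Of the remaining measured processome genes, 1 was at least 2-fold apart. Utp6 stood at 44.3 and 79.96 CPM in the S31A injected libraries, against 22.7 and 35.9 CPM in those of the S31A control, higher in both injected libraries, 2.04-fold in sum (log2 ratio 1.03, interval 0.90 to 1.17). That is close to the 2-fold limit, and its log2 ratio was 0.93 with library totals unscaled, 0.78 without S31A control library 1, and it was 0.56 when S31A injected library 2 was left out. Utp20 stood at 139.7 and 59.8 CPM in the S31A injected libraries, against 55.5 and 60.4 CPM in those of the S31A control, overlapping (log2 ratio 0.85, interval 0.75 to 0.95), with -0.0016 without S31A injected library 1 and 1.24 without S31A injected library 2. Wdr75 stood at 15.4 and 20.3 CPM in the S31A injected libraries, against 20.4 and 28.8 CPM in those of the S31A control, lower in both injected libraries (log2 ratio -0.48, interval -0.68 to -0.29). Wdr36 stood at 182 and 147 CPM in the S31A injected libraries, against 139 and 185 CPM in those of the S31A control, overlapping, with a log2 ratio of 0.03, and -0.19 without S31A injected library 1. The others overlapped, with log2 ratios of 0.31 for Wdr43, -0.06 for Utp3, -0.36 for Utp15 and -0.66 for Utp4. That of Utp4 was -3.23 without S31A injected library 1, -1.15 without S31A control library 2 and 0.14 without S31A control library 1. Without S31A control library 2 Utp15 was at 0.67 and Utp3 at 0.89, and without S31A injected library 2 Wdr43 was at -0.24, so these genes changed sign with 1 library. Heatr1 had 63 counts in S31A injected and 4 in S31A control zygotes, nearly all of them in injected library 1, at 5.20 and 0.214 CPM. Nop14 had 13 counts in S31A injected and 0 in S31A control zygotes, all in injected library 1. Bysl, a processome protein also known as bystin, had 50 counts in S31A injected and 32 in S31A control zygotes, each sample with a library at 0.

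The nucleolar scaffold genes held their levels within 2-fold. Npm1 stood at 734 and 752 CPM in the S31A injected libraries, against 533 and 559 CPM in those of the S31A control, higher in both injected libraries (log2 ratio 0.45, interval 0.41 to 0.48). Nolc1 stood at 55.1 and 49.4 CPM in the S31A injected libraries, against 62.1 and 101 CPM in those of the S31A control, lower in both (log2 ratio -0.64, interval -0.75 to -0.53). Ncl stood at 69.4 and 68.2 CPM in the S31A injected libraries, against 72.2 and 78.5 CPM in those of the S31A control, lower in both by a margin of 1.09-fold. In the large subunit group Pes1 overlapped (log2 ratio -0.10, and 0.43 without S31A control library 2). Rrp8 stood at 20.1 and 21.7 CPM in the S31A injected libraries, against 4.30 and 34.5 CPM in those of the S31A control, which lay on both sides of the injected ones. Its log2 ratio was 0.08 in sum, 2.29 without S31A control library 2 and -0.69 without S31A control library 1, so it has no direction here. Bop1 had 47 counts in S31A injected and 0 in S31A control zygotes, at least 16.5-fold higher on the 3-count floor, nearly all in injected library 1. Nop2, Wdr12, Rrp1 and Polr1b had 0 counts in both S31A samples, and Rrp12 had 0 in S31A injected and 8 in S31A control zygotes.

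The polymerase I genes with the largest ratios rested on a single library. Polr1a had 15 counts in S31A injected and 227 in S31A control zygotes (log2 ratio -3.67, interval -4.71 to -3.09), and Ubtf had 59 in S31A injected and 258 in S31A control zygotes (log2 ratio -2.02, interval -2.49 to -1.64). All control counts of both genes came from S31A control library 2. Without it the log2 ratios turned to 2.86 for Polr1a and 4.68 for Ubtf, so neither has a direction here. Polr1c, the other shared subunit, had 32 counts in S31A injected and 160 in S31A control zygotes, overlapping between libraries, and Polr1e 5 in S31A injected and 0 in S31A control zygotes. Rrn3 stood at 135 and 89.3 CPM in the S31A injected libraries, against 93.5 and 158 CPM in those of the S31A control, overlapping (log2 ratio -0.14, and 0.34 without S31A control library 2). Polr1d stood at 86.7 and 79.9 CPM in the S31A injected libraries, against 59.3 and 105 CPM in those of the S31A control, overlapping as well (log2 ratio 0.02, and -0.30 without S31A control library 1). At 1 CPM or more 30 of the 40 genes could be compared, and 4 were at least 2-fold higher and 8 lower, against 22.3% and 23.7% of the 13180 genes at that level. Of the 28 genes at 1 CPM or more in the S31A control, 0 were without counts in S31A injected zygotes, against 9.27% of all such genes.

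**Figure D3:**
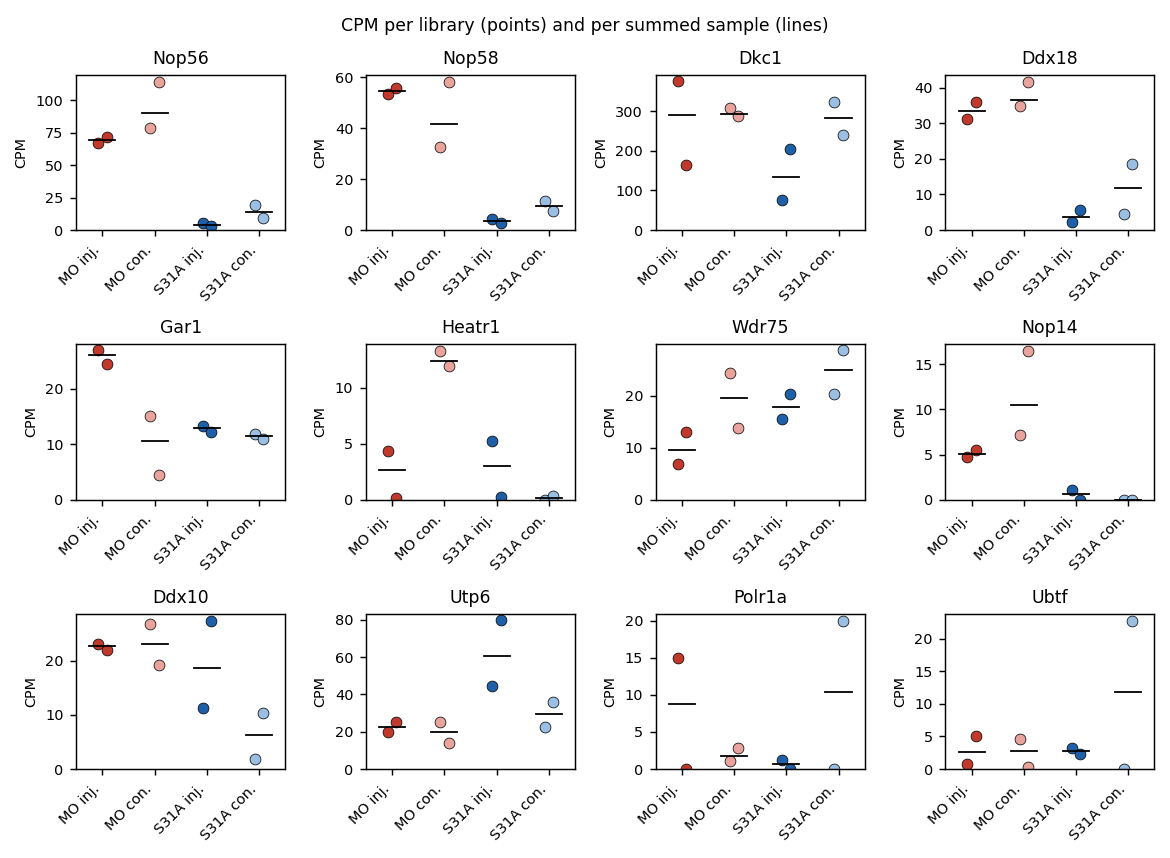
CPM of 12 of the genes (panels) in each library (points) and in the summed sample (lines), with injected samples to the left of their controls. Nop56 and Nop58 are far lower in both S31A samples than in both MO samples, Heatr1 and Gar1 separate in the MO experiment, and the S31A control points of Polr1a and Ubtf lie at 0 in library 1 and at 19.96 and 22.7 CPM in library 2.

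More of the 40 genes were 2-fold apart between the controls of the 2 experiments than within either experiment. Of 27 genes measured there, 5 were at least 2-fold higher in the S31A control than in the MO control, against 13.6% of all 8266 measured genes, and 9 were lower, against 16.2%. With the libraries apart, 2 were higher, against 9.67% of all genes, and all 9 of the lower ones remained, against 14.5%. The median log2 ratio was -0.15 over the 27 genes and 0.05 over all. The controls belong to separate experiments, and what else differs between these cannot be told apart.

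Lower in the S31A control were genes of box C/D snoRNPs, the processome and large subunit assembly. Nop56 stood at 19.2 and 9.14 CPM in the S31A control libraries and 78.5 and 114 CPM in the MO control libraries (log2 ratio -2.66, interval -2.85 to -2.49), and Nop58 at 11.4 and 7.30 CPM in the S31A control and 32.7 and 58.4 CPM in the MO control libraries (log2 ratio -2.14, interval -2.39 to -1.93). Rrp8 stood at 4.30 and 34.5 CPM in the S31A control and 96.2 and 101 CPM in the MO control libraries (log2 ratio -2.25, interval -2.41 to -2.10). Ddx10 (log2 ratio -1.87, interval -2.18 to -1.60) and Ddx18 (log2 ratio -1.62, interval -1.84 to -1.41) were lower as well. Of the processome, Nop14 had 0 counts in the S31A control and 166 in the MO control, at least 77-fold lower on the 3-count floor. Heatr1 had 4 in the S31A control and 195 in the MO control (log2 ratio -5.47). Utp4 and Utp3 were 2.52-fold and 2.22-fold lower. All 9 had both S31A control libraries below both MO control libraries.

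Higher in the S31A control with the libraries apart were Nop10, at 50.4 and 47.1 CPM in the S31A control and 10.5 and 7.23 CPM in the MO control libraries (log2 ratio 2.44, interval 2.20 to 2.72), and Wdr36, at 139 and 185 CPM in the S31A control and 52 and 45.2 CPM in the MO control libraries (log2 ratio 1.78, interval 1.67 to 1.89). Rrn3 was 2.14-fold higher, and here the libraries overlapped by a narrow margin (93.5 and 158 CPM in the S31A control, 39.5 and 94.7 CPM in the MO control). Polr1a and Ubtf were higher in sum through S31A control library 2 alone. Of the 37 genes at 1 CPM or more in the MO control, 6 had 0 counts in the S31A control, against 14% of all such genes. These 6 were Polr1b, Polr1e, Nop14, Nop2, Rrp1 and Wdr12.

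The 2 experiments share no sample and were set side by side gene by gene. Of 22 genes measured in both experiments, 10 had negative log2 ratios in both, against 25.9% of all 7320 genes measured in both. Positive in both were 4, against 29.1%, and of opposite sign 8, against 45%. At least 2-fold apart in the same direction in both were 0 of 22, against 4.43%. In both experiments 3 genes, Nolc1, Nop56 and Wdr75, had both injected libraries below both control libraries, against 5.03% of all genes, with log2 ratios of -0.41, -0.37 and -1.04 for MO and -0.64, -1.74 and -0.48 for S31A. Gar1 was the 1 gene above in both, against 4.49% of all genes, at 1.30 with MO and 0.17 with S31A. For 7 of the 22 genes the S31A log2 ratio differed from the MO one by at least 1, against 35.4% of all genes, a share no higher than the background. It was lower with S31A for Ddx18 (difference -1.49), Nop10 (-1.40), Nop56 (-1.37), Gar1 (-1.13) and Dkc1 (-1.07), and higher with S31A for Ddx10 (1.58) and Utp20 (1.58). The difference for Dkc1 used the summed MO ratio, which moved to -0.91 once injected library 1 was dropped. With 1 sample per group the differences between experiments could not be tested.

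The copies change how much RNA is counted for Npm1, Ddx18 and Pes1, and less so the ratios. The 9 copies of Npm1 held 168201 counts over the 8 libraries, against 50027 on the gene, so 77.1% of the joint counts lay on copies, of which Gm9118 alone had 93813. In CPM the copies of Npm1 stood at 1954 and 2193 CPM in MO injected, 1832 and 1789 CPM in MO control, 2343 and 2215 CPM in S31A injected and 2180 and 2053 CPM in S31A control libraries. The gene and the sum of its copies had counts in all 8 libraries. With the copies added, the log2 ratio of Npm1 was 0.16 after MO injection and 0.19 after S31A injection, in place of -0.09 with MO and 0.45 with S31A. The sign with MO thus depends on how reads on copies are counted, and both values are small.

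Ddx18 had 1652 counts on the gene and 6962 on its copies, all of them on Gm16433, which is 80.8% of the joint counts. Gm16433 stood at 85.5 and 184 CPM in MO injected, 111 and 228 CPM in MO control, 6.14 and 35 CPM in S31A injected and 32 and 88.9 CPM in S31A control libraries. It followed the gene, with both S31A samples below both MO samples, and the log2 ratios with the copy added were -0.24 for MO and -1.68 for S31A. Pes1 had 3410 counts on the gene and 5313 on its copies (60.9% of the joint counts), and log2 ratios of 0.27 for MO and -0.17 for S31A with the copies added. Whether the reads came from the genes or from transcribed copies was not tested. For Ncl the single copy, Gm12020, held 1410 counts, against 7296 on the gene.

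**Figure D4:**
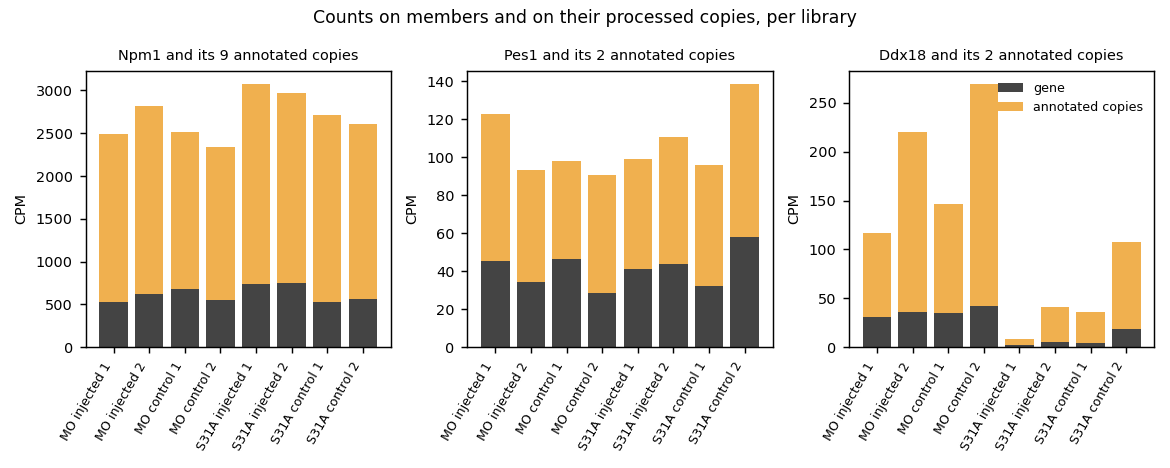
CPM per library (bars) assigned to Npm1, Pes1 and Ddx18 (dark) and to their annotated copies (orange, stacked above). Copies hold 77.1% of the joint counts for Npm1, 60.9% for Pes1 and 80.8% for Ddx18, and gene and copy of Ddx18 are both low in the S31A injected libraries.

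The wider pathway was read from 141 further ribosome biogenesis genes, of which 135 were in the table. After MO injection 84 were measured, 7 at least 2-fold higher and 12 lower, with a median log2 ratio of -0.04, against 11.3% and 12.5% of all genes. With S31A 84 were measured as well, 11 at least 2-fold higher and 21 lower, with a median of -0.05, against 14.1% and 16.1%. The lower side with S31A held 16 of the 84 genes with the libraries apart, against 11.4% of all genes. Between the controls, 6 of 87 were higher in the S31A control and 22 lower, with a median of -0.22, against 13.6% and 16.2% of all genes.

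Of the polymerase I factors outside the 40, Taf1d, a subunit of the promoter selectivity factor, was lower in both experiments. It stood at 3.6 and 5.68 CPM in the MO injected libraries, against 15.3 and 18.9 CPM in those of the MO control (log2 ratio -1.83). In the S31A experiment it stood at 0.426 and 2.89 CPM in the S31A injected libraries, against 15.2 and 9.76 CPM in those of the S31A control (log2 ratio -2.95). No other measured gene of that list of 13 was 2-fold apart in either experiment. Of the shared polymerase subunits, Polr2f was higher with MO (log2 ratio 1.44) and Polr2e lower with S31A (log2 ratio -1.98), both with the libraries apart.

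Among 27 other small subunit factors measured with MO, 2 were at least 2-fold higher and 1 lower, against 11.3% and 12.5% of all genes. Dcaf13, of the processome, stood at 6.74 and 8.29 CPM in the MO injected libraries, against 16.8 and 21.4 CPM in those of the MO control (log2 ratio -1.27), whereas Nol10 was higher (log2 ratio 1.07). With S31A, 28 were measured, and 5 were higher and 8 lower, against 14.1% and 16.1% of all genes. Nol7 stood at 0.256 and 0 CPM in the S31A injected libraries, against 18.1 and 18.4 CPM in those of the S31A control, and Utp14a, a processome protein, at 0 and 0.214 CPM in the S31A injected libraries, against 22.4 and 5.01 CPM in those of the S31A control. Injected zygotes thus had only 3 counts of Nol7 and 2 of Utp14a. Nob1, the endonuclease that makes the mature end of the small subunit RNA, stood on the other side, at 8.27 and 15 CPM in the S31A injected libraries, against 0.0934 and 1.05 CPM in those of the S31A control (log2 ratio 4.05).

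Of the other large subunit factors, with MO 4 of 35 were higher by 2-fold or more and 7 lower, against 11.3% and 12.5% of all genes. With S31A 3 of 31 were higher and 8 lower, against 14.1% and 16.1%. Dhx33, a helicase tied to rRNA synthesis, had a log2 ratio of -2.68 with MO, and Ddx51, a helicase of large subunit maturation, one of 2.60, both with the libraries apart. With S31A the lowest were Nvl, an ATPase of large subunit maturation (-4.38), the GTPase Gnl2 (-4.19) and the helicase Ddx27 (-3.59), again with the libraries apart. Gnl2 stood at 2.81 and 0 CPM in the S31A injected libraries, against 28.4 and 32.3 CPM in those of the S31A control. Of the genes for snoRNP assembly and nucleolar RNA decay, Exosc1, an exosome protein, was lower in both experiments (-3.25 with MO and -2.33 with S31A), each time with an injected library at 0. Rpp38, a protein of RNase P and RNase MRP, was lower with MO (-2.23), and Xrn2, the nuclear exonuclease, higher with S31A (1.25).

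Regulators of ribosome synthesis gave 3 of 13 genes at least 2-fold higher with MO and 0 lower, against 11.3% and 12.5% of all genes, and the libraries stood apart for 1 of the 3, Mtor, and overlapped for Sirt7 and Mga. With S31A 0 of 11 were higher and 1 was lower, against 14.1% and 16.1%. Mtor, the kinase that couples nutrients to ribosome synthesis, stood at 55.6 and 21.3 CPM in the MO injected libraries, against 12.4 and 15.1 CPM in those of the MO control (log2 ratio 1.67). Smarca4, a chromatin remodeller, stood at 24.6 and 14.3 CPM in the S31A injected libraries, against 56.8 and 63.9 CPM in those of the S31A control (log2 ratio -1.58). Ribosomal protein mRNAs were little covered, with 12 of 79 measured in each experiment. With MO 4 were at least 2-fold higher (Rpl22, Rpl27a, Rplp1 and Rps2) and 2 lower (Rpl17 and Rpl29), against 11.3% and 12.5% of all genes. With S31A 1 was higher (Rpl30) and 3 were lower (Rpl14, Rpl22 and Rpl29), against 14.1% and 16.1%. Subunits and general factors of RNA polymerase II gave, with MO, 2 of 31 higher and 3 lower, against 11.3% and 12.5% of all genes. With S31A they gave 4 of 32 higher and 7 lower, against 14.1% and 16.1%. The shares of the 40 genes and of these lists were not tested against each other.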

How the data were processed

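RNA-seq counts of 4 zygote samples, 1 per group, were used. The deposited table holds raw counts, whole numbers without normalization, in 2 columns for every sample, and the gene lengths were as deposited, per the file headers. Bowtie2, featureCounts, FastQC and DESeq2 are named with the mm10 build, per the submitters' processing notes; versions, strand setting and treatment of multiply matching reads are not given in the sources used here. cDNA was amplified by PCR, per the labels' protocols, and without molecular identifiers an interval or floor covers counting error alone.

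The 2 columns of a sample were added, and totals were scaled by TMM in edgeR 4.0.16 under R 4.3.3. Ratios used a prior count of 2, for genes that reached 10 CPM in either sample, and 95% intervals are Clopper-Pearson, exact for the split of counts between samples. A ratio against 0 counts is a bound with a floor of 3 counts per summed sample. Library CPM used TMM factors over the 8 libraries, and a library counts as above or below only against both of the other sample. Levels between genes are CPM per kilobase of deposited length. No p-value was computed, because each group was 1 sample. Copies were found by BLAST+ 2.17.0 against GENCODE M21 transcripts at 85% identity and 80% coverage or more; all 40 gene spans in the table equal those of GENCODE M21 in mm10. The steps were tested on simulated counts with known fold changes. Of the per-sample columns, all were used.

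The genes, the role groups and the further lists were chosen with earlier results of these data known. Values per library are given for genes at least 2-fold apart with the libraries apart, the 5 highest and 3 lowest per kilobase, the 4 with the widest gap between libraries, and up to 4 genes per further list by absolute log2 ratio, and other genes were added after their values were seen. Alternatives were other scalings, filters, prior counts, treatment of copies and of libraries.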

Additional observations from a re-analysis of the deposited data

How the results depend on the processing

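With 1 sample per group, all values are limited by the unknown relation between the libraries of a sample. Counts of genes past 2-fold followed the filter. After MO injection 1 of 25 genes was higher and 4 lower, against 11.3% and 12.5% of all genes. At 1 CPM these were 2 and 10 of 37, against 16.7% and 24.3% of all genes. At 50 CPM they were 0 and 0 of 14, against 334 and 271 of all 3853 genes. With no filter they were 2 and 12 of 39, against 3114 and 5539 of all 19046. The MO median of -0.14 was -0.31 at 1 CPM, -0.37 with no filter and -0.25 with total counts alone. With S31A 2 of 24 were higher and 6 lower, against 14.1% and 16.1% of all genes. At 1 CPM 4 of 30 were higher and 8 lower, against 22.3% and 23.7% of all genes. At 50 CPM 1 of 11 was higher and 1 lower, against 311 and 286 of all 3876 genes. With no filter 6 of 35 were higher and 10 lower, against 3577 and 3715 of all 15489. With total counts alone 1 of 24 was higher, against 987 of all 8142. The S31A median of -0.13 was 0.018 at 50 CPM. Between controls 14 of 27 were apart, against 29.8% of all genes, and the count was 23 at 1 CPM, 5 at 50 CPM and 24 with no filter. For the controls and within samples, shares of all genes at these other filters are not given here. Within samples the counts at 1 CPM, 50 CPM and no filter were 14, 3 and 15 for MO injected (6 as reported), 12, 1 and 12 for MO control (4) and 13, 2 and 14 for S31A injected (4), and 1 at 50 CPM for S31A control (10). The share of Npm1 was 31.8% by CPM alone in place of 41.27%, and neither value includes counts on its copies. Leaving out each library of an experiment in turn gave 0 to 2 genes higher and 2 to 7 lower with MO, with medians of -0.29 to -0.14. With S31A it gave 0 to 3 higher and 5 to 7 lower, with medians of -0.56 to 0.32. Over all genes it gave 653 to 1405 higher and 966 to 1885 lower with MO, of 8061 to 8365 measured. With S31A all genes gave 1260 to 1703 higher and 1538 to 1757 lower, of 8257 to 8330 measured. Total counts alone moved the median of all genes to -0.09 in place of 0.03 with MO and to -0.09 in place of 0.02 with S31A. The filter sets which genes are compared, and the cause of these changes and of the others was not tested. Without S31A control library 2 the S31A log2 ratios of Polr1a and Ubtf turned to 2.86 and 4.68, and over the libraries left out in turn they ran from -6.50 to 2.86 and from -2.94 to 4.68. Of all log2 ratios of single genes over the alternatives, 338 stayed within the 95% counting interval of the reported ratio, 150 lay outside it, and 2 turned from a value past 2-fold. Most of those outside it, and the 2 that turned, came from leaving out a library. Most values with a library left out lay outside it, and few of those with all libraries kept. Weighting the libraries equally took Wdr75 under 2-fold with MO (-0.93), and adding the copies changed no gene past 2-fold. No paired analysis was possible because each group is 1 sample and no result comes from a test; the count columns of a sample carry the numbers 1 and 2, and no source says what these share between samples.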
